A study of Mus musculus with 12 samples.

Results

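The effect of deleting miR-210 was measured in M2 macrophages, that is, in bone-marrow-derived macrophages of the mouse after 72 h with 20 ng/mL IL-4, by RNA-seq of 3 miR-210 KO and 3 wild-type (WT) libraries of the 12 in the series. The comparison was taken across all genes, so its members are the 13980 genes with enough counts for a test, of 56941 genes in the table and 26165 with a count in any of the 6 libraries. Both groups carry the label C57Bl/6J. The miR-210 KO mice came from crosses of heterozygous carriers of a deletion made with miR-210 floxed and Gata-1 Cre mice, and WT controls came from these crosses too. Their monocytes were taken from bone marrow by negative selection and grown for 7 days with 20% serum and with 30% medium conditioned by L929 fibroblasts, which release the macrophage growth factor M-CSF. IL-4 was then added. Age and sex of the mice are not given in the sources used here, nor whether the 3 libraries of a group came from separate animals, so p-values measure only the spread between these libraries.

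MiR-210 is a microRNA known for its induction by low oxygen through HIF-1 and for silencing transcripts of mitochondrial and iron-sulfur proteins. A microRNA binds mainly through its seed, bases 2 to 8 of the mature strand, to matching sites in the 3' UTR of a transcript, which lowers the level or the translation of that transcript. IL-4 acts through STAT6 and turns macrophages toward alternative activation, a state with high arginase, mannose receptor and chitinase-like proteins that is linked to tissue repair and, with prolonged exposure, to fusion into giant cells. The 2 mature strands of mouse miR-210 are shown because the search for seed matches among the genes that changed rests on them, with the seed in capitals (sequences from RefSeq, table of build GRCm38.p6).
miR-210-3p: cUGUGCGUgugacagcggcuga
miR-210-5p: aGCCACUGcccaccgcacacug

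The 6 libraries held 8096658 to 9671168 counts, and the 10 most counted genes took 4.48% to 4.84% of them. Mir210, the gene of the precursor (GRCm39, chromosome 7, 140801297 to 140801406), had 1, 2 and 1 counts in the WT libraries and 0 in each miR-210 KO library, which bears on the labels and not on the level of the mature microRNA. A different batch is named for each group in the labels, and its effect cannot be told apart from that of genotype. The 24 tested macrophage genes of 25 listed had summed levels of 172360.2 to 178211.7 normalized counts in WT and 173871.8 to 193526.2 in miR-210 KO, so the labelled cell type was present in both. Of the markers of other cells that the selection could leave, 2 of 12 neutrophil, 2 of 16 lymphoid, 2 of 10 dendritic, 2 of 11 mast cell, basophil and eosinophil, 2 of 12 erythroid and megakaryocyte and 0 of 12 stromal genes had enough counts to be tested, and none was called. The summed neutrophil markers lay between 678.9 and 776.8 normalized counts in WT and 624.1 and 731.5 in miR-210 KO, most of it from Mmp8, and S100a8 had 21.4, 29.9 and 30.9 in WT and 10.6, 15.4 and 9.75 in miR-210 KO (log2 fold change -1.17, SE 0.28, adjusted p = 0.060). The dendritic markers Zbtb46 and Batf3 summed to 364.7 to 401.2 in WT and 286.1 to 389.0 in miR-210 KO. The lymphoid markers Cd4 and Cd79b summed to 61.7 to 68.8 and 67.6 to 76.8, and Gata2 and Siglecf to 73.3 to 79.5 and 61.4 to 74.0. Pf4 and Itga2b summed to 3016.7 to 3232.4 in WT and 3249.6 to 3735.6 in miR-210 KO, nearly all of it Pf4, which monocytes and macrophages also express. The markers of these lists without enough counts reached at most 25 counts in a library. Their part in the results was not tested.

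Genes were compared with edgeR's quasi-likelihood test, using the Benjamini-Hochberg (BH) adjustment across all 13980, and called at an adjusted p under 0.05 and an absolute log2 fold change over 0.26 (1.2-fold). SE is the standard error of the log2 fold change. In miR-210 KO M2 macrophages 137 genes (0.980%) were called, 57 higher (0.408%) and 80 lower (0.572%), and 1498 genes (10.7%) had an unadjusted p under 0.05. At any fold, 144 genes (1.03%) had an adjusted p under 0.05. The median log2 fold change of all genes tested was 0.002. Of the called genes, 97 changed by 1 or less on the log2 scale, and 40, 18 higher and 22 lower, by more. The groups did not overlap in 16.0% of all genes, 7.94% with higher and 8.10% with lower values in miR-210 KO. Values below are counts scaled by TMM to the mean library size, called normalized counts, in the order of libraries 1, 2 and 3 of each genotype.

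**Figure D1:**
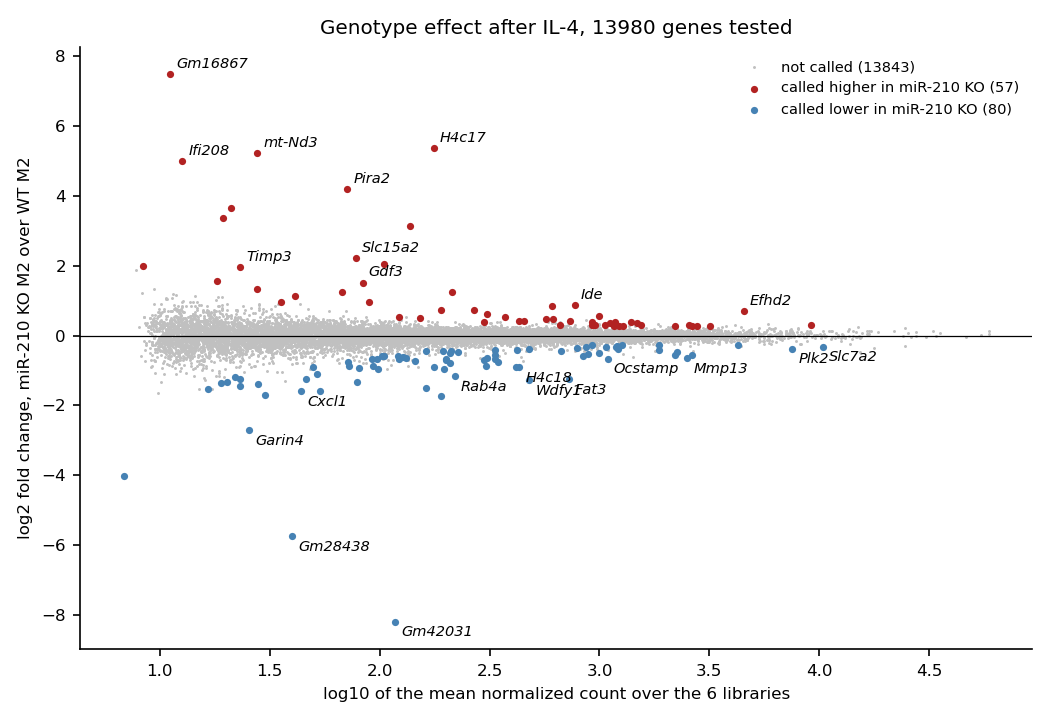
Log2 fold change of miR-210 KO M2 over WT M2 (vertical) against the log10 of the mean normalized count over the 6 libraries (horizontal) for 13980 genes, with called genes in red (57 higher) and blue (80 lower). The largest changes lie at low levels, while the called genes of high level, such as Efhd2, Plk2 and Slc7a2, changed by less than 1; fitted values of genes with 3 or fewer counts in every library of a group, such as Gm16867, depend on a prior count.

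How many genes were called depended on single libraries. The number lay at 60 without WT library 3, 67 without KO library 1, 53 without KO library 2 and 215 without KO library 3, and at 110 and 151 without WT libraries 1 and 2. Of the 137 genes, 44 (22 higher, 22 lower) were called in each of these 6 fits, and the libraries whose loss ended a call are named with the genes below. The DESeq2 Wald test also called 111 of the 137, and the fit of all 12 libraries called 59. Of the 44 genes, Sirpb1c, Cxcl1, Plk2, Nhsl2 and Clec12a were not called in the fit of all 12 libraries and Gm10222 not by DESeq2. WT library 3 was the highest of the WT libraries in 53 of the 80 genes called lower (66.2%), against 34.4% of all genes tested. It was the lowest of them in 26 of the 57 genes called higher (45.6%), against 34.6% of all genes tested.

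Slc15a2, Timp3, Gdf3 and Tmem254 were called higher, and at most 1.8% of their 50-base stretches occur in transcripts of other genes. Slc15a2, which encodes a proton-coupled transporter of di- and tripeptides (chromosome 16, 36570475 to 36605334), had 19.4, 30.8 and 33.0 normalized counts in WT and 128, 131 and 127 in miR-210 KO (log2 fold change 2.21, SE 0.17, adjusted p = 1.5e-06). Gdf3, a growth factor of the TGF-beta family (chromosome 6, 122582317 to 122587197), had 38.7, 45.3 and 45.8 normalized counts in WT and 130.0, 129 and 113 in miR-210 KO (log2 fold change 1.52, SE 0.14, adjusted p = 1.7e-05). Both genes stood far apart between genotypes and kept their calls whichever library was left out. Timp3, an inhibitor of matrix metalloproteinases (chromosome 10, 86136236 to 86185371), was at a low level, with 12.2, 3.62 and 12.8 in WT and 29.6, 28.9 and 52.0 in miR-210 KO (log2 fold change 1.96, SE 0.37, adjusted p = 0.016). KO library 3 was its highest library, and the call was lost without KO library 2 (adjusted p = 0.054). Tmem254, a membrane protein gene, had 134, 109 and 139 in WT and 299, 318 and 285 in miR-210 KO (log2 fold change 1.25, SE 0.10, adjusted p = 3.8e-06), with no overlap between genotypes.

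Other increases were smaller in fold but were measured on many counts. Efhd2, a calcium-binding protein of the actin cytoskeleton (chromosome 4, 141585453 to 141602231), had 3426, 3503 and 3467 normalized counts in WT and 5572, 5839 and 5362 in miR-210 KO (log2 fold change 0.69, SE 0.05, adjusted p = 8.2e-07). Ide, the insulin-degrading enzyme (chromosome 19, 37245688 to 37340729), had 538, 531 and 567 in WT and 961, 992 and 1033 in miR-210 KO (log2 fold change 0.87, SE 0.06, adjusted p = 8.2e-07). In both genes the spread within a genotype was a small part of the gap. Snx6, a sorting nexin of the retromer pathway (chromosome 12, 54792207 to 54842533), had 786, 871 and 762 in WT and 1229, 1206 and 1124 in miR-210 KO (log2 fold change 0.56, SE 0.07, adjusted p = 2.5e-04). Slc40a1, which encodes the iron exporter ferroportin (chromosome 1, 45947211 to 45965683), had 297, 311 and 305 in WT and 470.4, 420.1 and 423 in miR-210 KO (log2 fold change 0.52, SE 0.08, adjusted p = 0.0024). These 4 genes were called in each fit with 1 library left out, and their log2 fold changes in M0 macrophages, without IL-4, were 0.65, 0.85, 0.50 and 0.10.

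Wdfy1, Rab4a, Fat3, Camk2b and Garin4 were called lower, and at most 0.328% of their stretches occur in transcripts of other genes. Wdfy1, an early endosome protein that also acts in signalling by Toll-like receptors (chromosome 1, 79679017 to 79753860), had 698, 623 and 718 normalized counts in WT and 293, 257 and 293 in miR-210 KO (log2 fold change -1.28, SE 0.08, adjusted p = 2.0e-07). Rab4a, a small GTPase of endosomal recycling (chromosome 8, 124532545 to 124568842), had 304, 284 and 326 in WT and 118, 136 and 151 in miR-210 KO (log2 fold change -1.17, SE 0.10, adjusted p = 6.3e-06). Fat3, an atypical cadherin (chromosome 9, 15821485 to 16412581), had 976, 915 and 1168 in WT and 393, 388 and 505 in miR-210 KO (log2 fold change -1.25, SE 0.10, adjusted p = 3.5e-06). Each fell below 0.5 of its WT level with no overlap. Camk2b, the beta subunit of calcium/calmodulin-dependent kinase II (chromosome 11, 5915791 to 6016362), had 121, 110.5 and 105 in WT and 55.0, 41.6 and 37.9 in miR-210 KO (log2 fold change -1.33, SE 0.16, adjusted p = 2.4e-04). Garin4, a Golgi-associated binding partner of RAB2 that had too few counts for a test in M0 (chromosome 1, 190894781 to 190897014), had 41.8, 48.0 and 43.6 in WT and 2.11, 10.8 and 6.50 in miR-210 KO (log2 fold change -2.71, SE 0.32, adjusted p = 2.4e-04). All 5 calls held in each fit with 1 library left out. Gm614, an X-linked gene, had 28.5, 29.0 and 29.8 in WT and 13.7, 10.8 and 9.75 in miR-210 KO (log2 fold change -1.34, SE 0.25, adjusted p = 0.018), and the call was lost without WT library 1, WT library 3 or KO library 2 (adjusted p between 0.051 and 0.12). Rbfox2, a splicing factor, fell from 27.3 ± 7.06 to 10.6 ± 2.44 normalized counts (SD, n = 3 each), log2 fold change -1.37, SE 0.30, adjusted p = 0.037, and the call was lost without WT library 2, WT library 3, KO library 1 or KO library 2 (adjusted p between 0.062 and 0.24). DESeq2 called neither Gm614 nor Rbfox2, and the fit of all 12 libraries did not call Rbfox2.

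**Figure D2:**
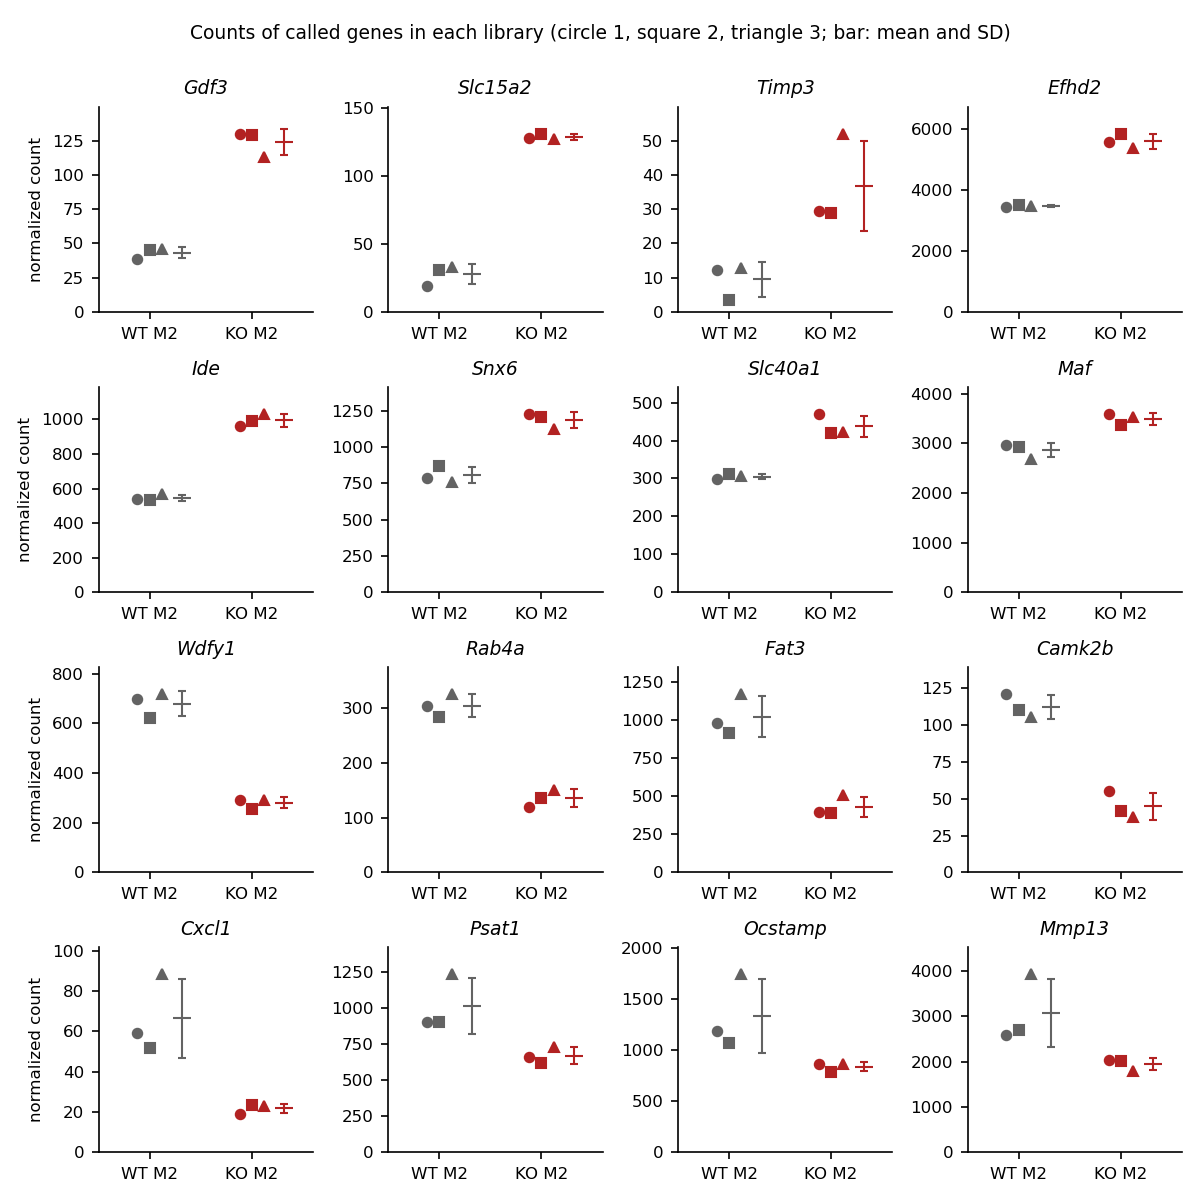
Normalized counts (vertical, from 0) of 16 called genes in the 6 M2 libraries (3 per genotype), with circles, squares and triangles for libraries 1, 2 and 3 and a bar for the mean and SD. In the upper 8 genes every miR-210 KO library lies above every WT library and in the lower 8 below. In Wdfy1, Rab4a, Fat3, Cxcl1, Psat1, Ocstamp and Mmp13 the triangle of WT library 3 lies above the other WT libraries, and in Camk2b it does not.

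Some of the changes of largest fold were in genes with a near-identical copy elsewhere in the genome, where reads can be counted on either copy. Of the 137 called genes, 16 share at least 50% of their 50-base stretches with transcripts of other genes. The replication-dependent histone genes H4c17 and H4c18 differ at 1 of the 402 transcript bases compared, the substitution G36A, counted from the first base of H4c17. H4c17 had 9.17, 9.05 and 6.38 normalized counts in WT and 353, 354 and 324 in miR-210 KO. H4c18 had 537, 579 and 577 in WT and 314, 312 and 277 in miR-210 KO. Their sum was 546, 588 and 583 in the WT libraries and 667, 666 and 601 in the miR-210 KO libraries (log2 fold change 0.17, SE 0.07, adjusted p = 0.37), so nearly all counts lay on H4c18 in WT and on both copies in miR-210 KO, while the sum was not called.

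A like exchange was seen between mitochondrial genes and their nuclear copies. The mitochondrial gene mt-Nd3, a subunit of respiratory complex I, had 1.02, 0.905 and 2.13 normalized counts in WT and 62.4, 49.7 and 49.8 in miR-210 KO, while its nuclear copy Gm28438 on chromosome 1 had 81.5, 77.0 and 76.6 in WT and 4.23, 0 and 0 in miR-210 KO. The sum of both was 82.5, 77.9 and 78.7 in the WT libraries and 66.6, 49.7 and 49.8 in the miR-210 KO libraries (log2 fold change -0.53, SE 0.16, adjusted p = 0.17). For the mitochondrial gene mt-Nd4l, the normalized count of mt-Nd4l was 1.02, 0 and 0 in the WT libraries and 8.46, 10.8 and 10.8 in the miR-210 KO libraries. For its nuclear copy, the normalized count of Gm10222 was 13.2, 10.9 and 14.9 in the WT libraries and 1.06, 0 and 1.08 in the miR-210 KO libraries, or 39 counts in all against 2, a ratio of 19.2 with a 95% counting interval of 4.96 to 164. The sum of this pair was not called either (log2 fold change -0.30, SE 0.31, adjusted p = 0.83). Within each pair the differences had opposite signs. The value of a single copy is the number of reads assigned to it and cannot be read as the level of that gene. Whether the H4c17, H4c18, mt-Nd3, Gm28438 and Gm10222 calls come from expression or from assignment was not tested, and the deposited counts do not tell them apart.

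Other sums over copies were called. Pira2, an activating paired immunoglobulin-like receptor, had 7.13, 5.43 and 9.58 normalized counts in WT and 143, 145 and 116 in miR-210 KO, while Pira1, which holds 83.0% of its stretches, had 71.3, 88.7 and 112 in WT and 129, 114 and 114 in miR-210 KO. Pira1 was not called, and the sum was 78.4, 94.2 and 121 in the WT libraries and 272, 259 and 229.7 in the miR-210 KO libraries (log2 fold change 1.38, SE 0.13, adjusted p = 2.7e-05). Of the stretches of Pira2, 93.2% occur in other genes, also in Pira12 (31.9%) and Pirb (22.7%), which this sum leaves out. For Sirpb1c summed with Sirpb1b, both signal-regulatory protein genes, the result was log2 fold change -0.64, SE 0.08, adjusted p = 6.0e-04, and for Dynlt1b, a dynein light chain, summed with Dynlt1a, Dynlt1c and Dynlt1f it was log2 fold change -0.47, SE 0.10, adjusted p = 0.037. Gm64463 and Tmem181b-ps summed with Tmem181a and Tmem181c-ps gave log2 fold change -0.54, SE 0.07, adjusted p = 0.0012. The histone gene H2ac19 summed with H2ac18 and Gm20634 was no longer called (log2 fold change -0.86, SE 0.20, adjusted p = 0.054), and neither was Gm56626 with its copies (log2 fold change 0.28, SE 0.15, adjusted p = 0.54). Gm16867 had 0 counts in each WT library and 24, 23 and 19 in miR-210 KO, at least 7.40-fold higher against a floor of 3 counts per library. With all such copies summed, 124 of 13969 genes were called, 53 higher and 71 lower.

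**Figure D3:**
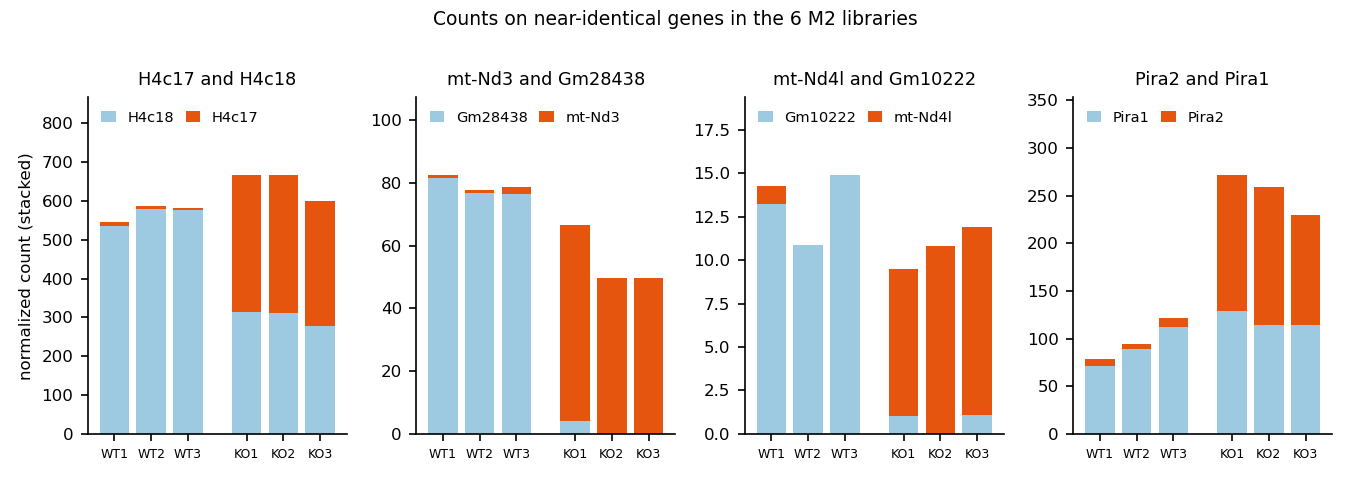
Normalized counts (vertical, stacked from 0) of 4 pairs of near-identical genes in the 6 M2 libraries, WT1 to WT3 and KO1 to KO3. In mt-Nd3 with Gm28438 and mt-Nd4l with Gm10222 nearly all counts of miR-210 KO lie on the copy that was nearly empty in WT, and in H4c17 with H4c18 they lie on both. For Pira2 with Pira1 the height of the whole bar also differs.

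A few further genes were at or near 0 in one genotype. Ifi208, of the interferon-inducible p200 family (chromosome 1, 173501241 to 173525961), had 2 counts in all in the 3 WT libraries and 74 in miR-210 KO, a ratio of 37.6 with a 95% interval of 10.1 to 316 that covers counting error only. By library it had 0, 0.905 and 1.06 normalized counts in WT and 34.9, 27.1 and 11.9 in miR-210 KO, so KO library 3 was the lowest of its group. It was called in every fit with 1 library left out, and 27.2% of its stretches also occur in other genes. It was the only one of 11 tested p200 family genes that was called (9.09%, beside 0.980% of all genes), and the median log2 fold change of the 11 was -0.009. Gm42031, a long noncoding RNA gene on chromosome 8, had 704 counts in all in WT and 2 in miR-210 KO, a ratio of 346 with an interval of 95.5 to 2860. Of its stretches, 63.8% occur in other genes. Gm47601 (log2 fold change 3.37, adjusted p = 3.9e-05) and Gm15446 (log2 fold change 2.04, adjusted p = 8.2e-07) were also called in every fit with 1 library left out, as was Gm49980 (log2 fold change -1.71, adjusted p = 0.0070), while Erdr1y (log2 fold change 1.34, adjusted p = 0.012) lost its call without WT library 2, KO library 1 or KO library 2 (adjusted p between 0.051 and 0.063). Gm15446 and Gm49980 share 48.6% and 52.0% of their stretches with other genes.

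Several called genes lay beside each other. On chromosome 17, Dynlt1b, Gm64463 and Tmem181b-ps, all lower, lay between 6697471 and 6757893. On the X chromosome, Mid1, G530011O06Rikx and Gm15726, all higher, lay between 168468195 and 168773794, and G530011O06Rikx and Gm15726 lie within the span of Mid1 on the other strand. Mid1, a microtubule-bound ubiquitin ligase, had 48.9, 33.5 and 36.2 normalized counts in WT and 88.8, 81.3 and 115 in miR-210 KO (log2 fold change 1.26, SE 0.19, adjusted p = 0.0025), and 39.3% of its stretches occur in other genes, among them Mid1-ps1. G530011O06Rikx had 25.5, 31.7 and 26.6 in WT and 230.4, 274 and 239 in miR-210 KO (log2 fold change 3.14, SE 0.14, adjusted p = 2.2e-09), and 32.8% of its stretches occur elsewhere. On chromosome 3, Sirpb1c and Gm5150 lay between 15817337 and 16060601 and were lower, as was Sirpb1a on the same chromosome. Slc15a2 holds Gm56626 within its span on the same strand, and both were higher. Fat3 holds Gm48726 within its span, also on the same strand, and both were lower, so reads of the inner genes can come from the outer ones. In all, 9 groups of 2 or 3 called genes had gaps of at most 100 kb. Not all moved together: Aldh18a1 (-0.49) lay beside Entpd1 (0.31), and Eps8l1 (0.96) beside Dnaaf3 (-0.77), as log2 fold changes. None of these genes kept its call in every fit with 1 library left out. How often called genes would lie this close without a link was not counted. Gm5150, Entpd1, Eps8l1, Dnaaf3 and, below, Cd81 are named for their position, after their values were seen.

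Within 0.1 Mb of Mir210, 9 genes were tested and 0 were called, with log2 fold changes between -0.49 and 0.03. Within 5 Mb, 94 genes were tested and 1 was called, Cd81, a tetraspanin that was higher (log2 fold change 0.27, SE 0.06, adjusted p = 0.031). It lost its call without WT library 1, WT library 3, KO library 1 or KO library 2 (adjusted p between 0.12 and 0.20) and in the fit of all 12 libraries. By chromosome, the share of called genes lay between 0.255% on chromosome 4 (2 of 783 genes) and 2.07% on chromosome 19 (10 of 484 genes) among autosomes, beside 0.980% of all genes. By biotype, 120 of 11104 protein-coding genes (1.08%) and 12 of 1432 long noncoding RNA genes (0.838%) were called.

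Of 28 tested genes that mark alternative activation, 2 were called, both lower, beside 0.980% of all genes, with a median log2 fold change of -0.054. Arg1, the arginase of IL-4-treated macrophages, had 16764, 16479 and 15463 normalized counts in WT and 16096, 16568 and 17365 in miR-210 KO (log2 fold change 0.04, SE 0.05, adjusted p = 0.86). Its log2 fold change in M0, 0.85, was called. Retnla, a secreted resistin-like protein, had 3359, 4068 and 3701 in WT and 4140.4, 3348 and 2342 in miR-210 KO (log2 fold change -0.18, SE 0.14, adjusted p = 0.72). The genotypes overlapped in both genes in M2. Mrc1, the mannose receptor CD206, had 23823, 22408 and 21651 in WT and 25548, 25269 and 28476 in miR-210 KO (log2 fold change 0.22, SE 0.06, adjusted p = 0.069), with every miR-210 KO library above every WT library but no call. Chil3, a chitinase-like protein, had 14891, 15505 and 14531 in WT and 12616, 12690.0 and 12649 in miR-210 KO (log2 fold change -0.24, SE 0.05, adjusted p = 0.018). Its order was the reverse, and its fold change was under the limit.

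The called members were a receptor and a transporter. Flt1, a receptor of VEGF-A (chromosome 5, 147498414 to 147662826), had 492, 445 and 695 normalized counts in WT and 309.7, 231 and 330.5 in miR-210 KO (log2 fold change -0.91, SE 0.15, adjusted p = 0.0060), with WT library 3 the highest, and the call was lost without KO library 2 (adjusted p = 0.087). Slc7a2, an importer of arginine, had 10768, 11324 and 12314 normalized counts in WT and 9252, 9159 and 9265 in miR-210 KO (log2 fold change -0.31, SE 0.05, adjusted p = 0.0078). It was no longer called without WT library 3, KO library 1 or KO library 2 (adjusted p between 0.044 and 0.077), without WT library 3 because its fold change fell under the limit, and not in the fit of all 12 libraries. The 31 tested genes of IL-4 receptor signalling held no called gene (4 had an unadjusted p under 0.05 and the DESeq2 Wald test called 0), with a median of 0.002. Its smallest p-values were of Pik3cd (log2 fold change -0.17, adjusted p = 0.31), Socs2 (log2 fold change -0.20, adjusted p = 0.37) and Pik3r1 (log2 fold change 0.20, adjusted p = 0.40).

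Of 11 tested genes of osteoclasts and of cell fusion, 3 were called, all lower, beside 0.572% of all genes called lower, around a median of -0.036. Dcstamp, a membrane protein needed for the fusion of osteoclasts and giant cells, had 332, 368 and 600.1 normalized counts in WT and 295, 245 and 226 in miR-210 KO (log2 fold change -0.76, SE 0.17, adjusted p = 0.049). Ocstamp, a related membrane protein of fusing osteoclasts, had 1188, 1069 and 1746 in WT and 866, 788 and 870.1 in miR-210 KO (log2 fold change -0.66, SE 0.13, adjusted p = 0.021). Car2, a carbonic anhydrase, had 209, 229 and 342 in WT and 148, 130.1 and 119 in miR-210 KO (log2 fold change -0.97, SE 0.16, adjusted p = 0.0062). In all 3 genes WT library 3 was the highest of all. Dcstamp was not called without WT library 3, KO library 1, KO library 2 or KO library 3 (adjusted p between 0.059 and 0.28), Ocstamp without KO library 1 or KO library 2 (adjusted p between 0.084 and 0.20) and Car2 without KO library 2 (adjusted p = 0.086). The DESeq2 Wald test called 1 of the 11 genes, Car2, and the fit of all 12 libraries called neither Dcstamp nor Ocstamp. In bulk RNA, fewer cells of a type and less RNA per cell cannot be told apart.

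The amino acid genes that the transcription factor ATF4 is known to induce had values mostly under 0. Of 33 tested genes, 29 had a log2 fold change under 0, beside 49.4% of all genes, and the median was -0.245. Called lower were 5 genes and higher 0, beside 0.572% and 0.408% of all genes. Psat1, of serine synthesis, had 901, 901 and 1233 normalized counts in WT and 659.6, 618 and 730.3 in miR-210 KO (log2 fold change -0.60, SE 0.11, adjusted p = 0.011). Chac1, which degrades glutathione, had 107, 114 and 165 in WT and 77.2, 47.0 and 76.9 in miR-210 KO (log2 fold change -0.95, SE 0.20, adjusted p = 0.029). Trib3, a pseudokinase, had 206, 231 and 301 in WT and 164, 141 and 160.4 in miR-210 KO (log2 fold change -0.67, SE 0.13, adjusted p = 0.020). WT library 3 was again the highest in each. Slc1a5, a glutamine transporter, and Aldh18a1, of proline synthesis, fell by 0.44 and 0.49 on the log2 scale (adjusted p = 0.027 and 0.033).

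The values of this group moved with WT library 3, which was the highest WT library in 30 of the 33 genes. Without it the median was -0.150 and 1 gene was called, and no gene was called without KO library 1 or without KO library 2. Psat1 lost its call without KO library 1 or KO library 2 (adjusted p between 0.064 and 0.13), and the other 4 without WT library 3, KO library 1 or KO library 2, with adjusted p between 0.056 and 0.22. The fit of all 12 libraries called, of the 5, only Psat1. The part of WT library 3 in the result was not tested. The aminoacyl-tRNA synthetases of the cytosol, which share this regulation, had a median of -0.147 with 18 of 20 genes under 0, beside 49.4% of all genes, and without WT library 3 the median was -0.088. None of them was called (8 had an unadjusted p under 0.05 and the DESeq2 Wald test called 0). Yars1, Gars1 and Cars1 had the smallest p, with log2 fold changes of -0.30 (adjusted p = 0.10), -0.24 (adjusted p = 0.15) and -0.26 (adjusted p = 0.15). In M0 the median of the ATF4 list was 0.116 and that of the synthetases 0.043.

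Immediate-early and NF-kB-responsive genes also lay mostly under 0. Of 53 tested genes, 47 had a log2 fold change under 0, beside 49.4% of all genes, and the median was -0.161. Called were 4 lower and 0 higher, beside 0.572% and 0.408% of all genes. Rgs1, a regulator of G protein signalling, had 3032, 2699.6 and 3667 normalized counts in WT and 2022, 2121 and 2243 in miR-210 KO (log2 fold change -0.56, SE 0.09, adjusted p = 0.0036). It was not called without KO library 2 (adjusted p = 0.054). Plk2, a polo-like kinase that is also a p53 target, had 8298, 7980.3 and 9179.9 in WT and 6414, 6773 and 6381 in miR-210 KO (log2 fold change -0.38, SE 0.06, adjusted p = 0.0026). Plk2 kept its call in every fit with 1 library left out but not in that of all 12 libraries. It was the only called gene of 39 tested p53 targets (2.56%, beside 0.980% of all genes), whose median was 0.040. Zfp36, which binds and destabilizes cytokine transcripts, and Sphk1, a sphingosine kinase, had log2 fold changes of -0.31 (adjusted p = 0.020) and -0.60 (adjusted p = 0.034). Both calls were lost without each library in turn except KO library 3. DESeq2 did not call Sphk1, and the fit of all 12 libraries called none of Rgs1, Zfp36 and Sphk1. WT library 3 was the highest WT library in 42 of the 53 genes, and without it the median was -0.096 and 2 genes were called. Without KO library 2 the list held 1 called gene and without KO library 3 it held 8.

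Among chemokines, cytokines and their antagonists, 4 of 35 tested genes were called, 1 higher and 3 lower, beside 0.980% of all genes, and the median was -0.042, with 14 genes over and 21 under 0. Cxcl1, a chemoattractant of neutrophils (chromosome 5, 91039094 to 91040974), had 59.1, 51.6 and 88.3 normalized counts in WT and 19.0, 23.5 and 22.8 in miR-210 KO (log2 fold change -1.59, SE 0.24, adjusted p = 0.0026). It was called in each fit with 1 library left out, but not in the fit of all 12 libraries, and its log2 fold change in M0 was 0.19. Il1rn, the antagonist of the IL-1 receptor, had 2356, 2166 and 3399 in WT and 1734, 1702 and 1941 in miR-210 KO (log2 fold change -0.56, SE 0.12, adjusted p = 0.036). Cxcl14, a CXC chemokine, had 103, 81.5 and 134 in WT and 62.4, 51.5 and 53.1 in miR-210 KO (log2 fold change -0.92, SE 0.18, adjusted p = 0.023). The call of Il1rn was lost without WT library 3, KO library 1 or KO library 2 (adjusted p between 0.065 and 0.25) and that of Cxcl14 without WT library 1, WT library 3, KO library 1 or KO library 2 (adjusted p between 0.056 and 0.17). Ebi3, a subunit of IL-27 and IL-35, was higher, with 259.8, 252 and 259 in WT and 351, 339.7 and 326 in miR-210 KO (log2 fold change 0.40, SE 0.08, adjusted p = 0.020). It lost its call without WT library 1, WT library 2, WT library 3, KO library 1 or KO library 2 (adjusted p between 0.065 and 0.10). Edn1, the vasoconstrictor endothelin-1 and one of the largest decreases, had 59.1, 53.4 and 129.8 in WT and 35.9, 28.0 and 15.2 in miR-210 KO (log2 fold change -1.58, SE 0.34, adjusted p = 0.035). WT library 3 held far more of Edn1 than the others, and the call was lost without WT library 3, KO library 1, KO library 2 or KO library 3 (adjusted p between 0.051 and 0.22). DESeq2 called neither Edn1 nor Il1rn, and the fit of all 12 libraries called none of Edn1, Il1rn, Cxcl14 and Ebi3.

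Growth factor and matrix genes changed in both directions. Of 38 tested genes of growth factors and TGF-beta signalling, 2 were called higher and 1 lower, beside 0.980% of all genes, with a median of -0.053. Beside Gdf3, Tgfbr2, the type II receptor of TGF-beta, was higher, with 1427, 1282 and 1201 normalized counts in WT and 1678, 1554 and 1768 in miR-210 KO (log2 fold change 0.35, SE 0.07, adjusted p = 0.023). Its call was lost without WT library 2, WT library 3 or KO library 1 (adjusted p between 0.060 and 0.13). Pdgfb, the platelet-derived growth factor B chain, was lower, with 347, 360.3 and 484 in WT and 289, 235 and 290.4 in miR-210 KO (log2 fold change -0.55, SE 0.12, adjusted p = 0.038). Its call was lost without WT library 3, KO library 1 or KO library 2 (adjusted p between 0.096 and 0.26). Of 44 genes of matrix and adhesion, 1 was called higher, Timp3, and 2 lower, Fat3 and Mmp13 (6.82%, beside 0.980% of all genes). Mmp13, a collagenase, had 2593, 2702 and 3932 in WT and 2044, 2015 and 1796 in miR-210 KO (log2 fold change -0.65, SE 0.12, adjusted p = 0.011). WT library 3 was again the highest, and the call was lost without KO library 2 (adjusted p = 0.10), with DESeq2 and in the fit of all 12 libraries. In that fit Tgfbr2, Pdgfb and Timp3 were not called either.

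The immunoglobulin-like and lectin receptors of myeloid cells had 5 calls among 35 tested genes, 2 higher and 3 lower, beside 0.980% of all genes, around a median of 0.017. Clec4n, which encodes dectin-2, had 981, 1005 and 943 normalized counts in WT and 1331, 1293 and 1156 in miR-210 KO (log2 fold change 0.37, SE 0.07, adjusted p = 0.011), and its call was lost without WT library 3, KO library 1 or KO library 2 (adjusted p between 0.070 and 0.087). Clec12a, an inhibitory lectin receptor, was lower, with 1328, 1332 and 1475 in WT and 1081, 1074 and 990.4 in miR-210 KO (log2 fold change -0.39, SE 0.06, adjusted p = 0.0053). Sirpb1a, an activating signal-regulatory protein, had 125, 105 and 131 in WT and 66.6, 67.8 and 61.8 in miR-210 KO (log2 fold change -0.87, SE 0.14, adjusted p = 0.0039), with 31.9% of its stretches in other genes, and Sirpb1c had 380.0, 353 and 372 in WT and 225, 250.3 and 207 in miR-210 KO. These 3 calls held with each library left out, but those of Clec12a and Sirpb1c did not hold in the fit of all 12 libraries, nor did that of Clec4n. In none of the 4 genes did the genotypes overlap.

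Genes of uptake and of the endosome and lysosome were called in small numbers. Of 47 tested genes of phagocytosis and efferocytosis, 1 was called higher and 1 lower (4.26%, beside 0.980% of all genes), with a median of 0.008. Mfge8, a secreted bridge between apoptotic cells and phagocytes (chromosome 7, 78783515 to 78798825), fell from 2611 ± 99.0 to 1870.2 ± 174 normalized counts (SD, n = 3 each), log2 fold change -0.48, SE 0.07, adjusted p = 1.0e-03 and kept its call with each library left out. Cd93, a C-type lectin-like receptor linked to clearance of dying cells, had 8943, 8196 and 7519 in WT and 9718, 10208 and 10559 in miR-210 KO (log2 fold change 0.31, SE 0.06, adjusted p = 0.023). Its call was lost without WT library 2, WT library 3, KO library 1 or KO library 2 (adjusted p between 0.051 and 0.15) and in the fit of all 12 libraries. Of 65 genes of endosomal traffic, Snx6 was called higher and Rab4a and Wdfy1 lower (4.62%), with a median of 0.043. Of 34 complement and coagulation genes, 1 was called lower (2.94%), Cd59a, an inhibitor of the membrane attack complex. It had 277, 221 and 244 in WT and 148, 173 and 133 in miR-210 KO (log2 fold change -0.69, SE 0.12, adjusted p = 0.0067).

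None of 69 tested lysosomal genes was called (16 had an unadjusted p under 0.05 and the DESeq2 Wald test called 1), and 46 had a log2 fold change over 0, beside 50.6% of all genes. Clcn5, a chloride-proton exchanger, and Ppt1, a thioesterase, had adjusted p = 0.025 and 0.031 and log2 fold changes of 0.262 and 0.261, just under the limit. Tpp1, a peptidase, was at 0.20 (adjusted p = 0.087). Of 58 transporters of ions and solutes, 3 were called, all higher, beside 0.408% of all genes called higher: Slc15a2, Slc40a1 and Slc9a9. Slc9a9, a sodium-proton exchanger of recycling endosomes, had 838, 856 and 715 in WT and 1086, 1010.1 and 1053 in miR-210 KO (log2 fold change 0.38, SE 0.07, adjusted p = 0.016), and its call was lost without WT library 3, KO library 1 or KO library 2 (adjusted p between 0.061 and 0.090). The median of the 58 genes was -0.018. Among the called genes of highest level, Tcirg1, a subunit of the proton pump of osteoclasts and lysosomes, had 4590.4, 4788 and 4677 in WT and 3915, 4007 and 3620.2 in miR-210 KO (log2 fold change -0.28, SE 0.05, adjusted p = 0.016). It kept its call only without KO library 2, its fold change or its adjusted p missing the limit in the other 5 fits. Neither it nor Slc9a9 was called in the fit of all 12 libraries.

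Replication-dependent histone genes had values mostly under 0, while those of genes of mitosis were mostly over 0. Of 58 tested histone genes, 53 had a log2 fold change under 0, beside 49.4% of all genes, with a median of -0.158. Called were 4 lower and 1, H4c17, higher, beside 0.980% of all genes called. H4c17, H4c18 and H2ac19 are among these calls. As given above, the sum of H4c17 with H4c18 and that of H2ac19 with its copies were not called. H4c9 had 276, 266 and 254 normalized counts in WT and 165, 156 and 139 in miR-210 KO (log2 fold change -0.79, SE 0.10, adjusted p = 2.5e-04), and shares 28.9% of its stretches with other genes. H1f3, a linker histone, had 1213, 1287 and 1100.3 in WT and 982, 913 and 958 in miR-210 KO (log2 fold change -0.34, SE 0.07, adjusted p = 0.023), and the call was lost without WT library 1, WT library 2, KO library 1 or KO library 2 (adjusted p between 0.066 and 0.16). The H2ac19 call was lost without WT library 2, WT library 3, KO library 1 or KO library 2 (adjusted p between 0.11 and 0.21), and neither H1f3 nor H2ac19 was called in the fit of all 12 libraries. In M0 the median of the histone list was 0.470. Of 84 genes of mitosis, 62 had a log2 fold change over 0, beside 50.6% of all genes, with a median of 0.118, and none was called (9 had an unadjusted p under 0.05 and the DESeq2 Wald test called 0).

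The mitotic genes with the smallest p were Stmn1 (log2 fold change 0.35, adjusted p = 0.084), Mki67 (log2 fold change 0.30, adjusted p = 0.13) and Aspm (log2 fold change 0.32, adjusted p = 0.24), in each of which the genotypes did not overlap. The median of this list was 0.049 without WT library 3 and 0.056 without KO library 3, less than 0.5 of its value with all libraries. In M0 the median of the mitosis list was 0.394, with the same sign as in M2. The 67 genes of DNA replication had a median of 0.065 and no call (2 had an unadjusted p under 0.05 and the DESeq2 Wald test called 0). E2f7 was at 0.89 (adjusted p = 0.18) and Pold2 at 0.41 (adjusted p = 0.44). The M0 median of the replication list was 0.314. Cell cycle regulators had a median of 0.051 over 29 genes and no call (4 had an unadjusted p under 0.05 and the DESeq2 Wald test called 0), led by Ccng1 (log2 fold change 0.20, adjusted p = 0.096), Rbl2 (log2 fold change 0.17, adjusted p = 0.28) and Cdkn1a (log2 fold change 0.22, adjusted p = 0.35).

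Interferon-stimulated genes had values mostly under 0 without a call. Of 52 tested genes, 45 had a log2 fold change under 0, beside 49.4% of all genes, with a median of -0.148, and none was called (15 had an unadjusted p under 0.05 and the DESeq2 Wald test called 0). Nlrc5, a regulator of MHC class I genes, had 698, 679.9 and 652 normalized counts in WT and 588, 556 and 533 in miR-210 KO (log2 fold change -0.28, SE 0.07, adjusted p = 0.064). Oasl2 had 954, 993 and 1009 in WT and 828, 830.3 and 511 in miR-210 KO (log2 fold change -0.44, SE 0.13, adjusted p = 0.13). KO library 3 was far below the others in Oasl2, and without this library the median of the list was -0.056. Ifit1bl1 was at -0.88 (adjusted p = 0.13). In M0 the median of the interferon list was -0.392, further under 0 than in M2. The 10 guanylate-binding and immunity-related GTPases had a median of -0.176, or 0.008 without KO library 3, and no call (2 had an unadjusted p under 0.05 and the DESeq2 Wald test called 0). Gbp2 was at -0.56 (adjusted p = 0.22), Iigp1 at -0.52 (adjusted p = 0.41) and Gbp5 at -0.34 (adjusted p = 0.70). The M0 median of this GTPase list was -0.697.

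For antigen presentation, none of 17 tested genes of MHC class I was called (2 had an unadjusted p under 0.05 and the DESeq2 Wald test called 0). H2-Q4, Tap1 and Tapbp had log2 fold changes of -0.26 (adjusted p = 0.21), -0.20 (adjusted p = 0.39) and -0.15 (adjusted p = 0.56). The median of the 17 genes was -0.076, and 0.003 without KO library 3. In the MHC class II and co-stimulation list, Cd83 was the 1 called gene of 14 (7.14%, beside 0.980% of all genes). It had 1033, 1058 and 948 in WT and 1349, 1445 and 1206 in miR-210 KO (log2 fold change 0.40, SE 0.07, adjusted p = 0.012). It was not called without WT library 3, KO library 1 or KO library 2 (adjusted p between 0.064 and 0.11), nor in the fit of all 12 libraries. Of 37 genes of Toll-like and related sensing none was called (8 had an unadjusted p under 0.05 and the DESeq2 Wald test called 0). Tlr7, a sensor of single-stranded RNA, was at 0.25 (adjusted p = 0.051), Ikbke at -0.25 (adjusted p = 0.13) and Ripk2 at -0.22 (adjusted p = 0.21).

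Signalling, survival and identity genes gave single calls. Of 42 genes of kinase and calcium signalling, Efhd2 was called higher and Camk2b lower (4.76%, beside 0.980% of all genes). Of 53 apoptosis genes, 1 was called higher (1.89%), Bmf, a pro-apoptotic BH3-only protein. It had 98.8, 103 and 99.0 normalized counts in WT and 154, 151 and 128 in miR-210 KO (log2 fold change 0.53, SE 0.12, adjusted p = 0.044). It was lost without WT library 1, WT library 2, WT library 3, KO library 1 or KO library 2 (adjusted p between 0.082 and 0.22), and the DESeq2 Wald test called 0 of the 53. Of 24 macrophage identity genes, 1 was called higher and 1 lower (8.33%). The transcription factor Maf was higher, with 2969, 2931 and 2695 in WT and 3596, 3367 and 3530.3 in miR-210 KO (log2 fold change 0.29, SE 0.06, adjusted p = 0.019). Csf2ra, the alpha chain of the GM-CSF receptor, was lower, with 1939.7, 2093 and 2134 in WT and 1804, 1717 and 1552 in miR-210 KO (log2 fold change -0.28, adjusted p = 0.0499). Maf lost its call without WT library 3, KO library 1 or KO library 2 (adjusted p between 0.054 and 0.12), and Csf2ra without any 1 of the 6 libraries. The fit of all 12 libraries called none of Bmf, Maf and Csf2ra. Arhgef3, an exchange factor for RhoA, had 423, 391 and 347 in WT and 495, 540.3 and 516 in miR-210 KO (log2 fold change 0.42, SE 0.08, adjusted p = 0.020) and lost its call without WT library 3, KO library 1 or KO library 2 (adjusted p between 0.054 and 0.14).

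Of the 10 tested mitochondrially encoded genes, mt-Nd3 was the 1 called (10.0%, beside 0.980% of all genes). Its sum with the nuclear copy Gm28438 was not called. The lists of energy, lipid and redox metabolism that follow held no called gene. Glycolysis and the pentose phosphate pathway had a median of -0.077 with 25 of 33 genes under 0, beside 49.4% of all genes (6 had an unadjusted p under 0.05 and the DESeq2 Wald test called 0). Slc16a3, a lactate exporter, was at -0.27 (adjusted p = 0.092), Eno2 at -0.28 (adjusted p = 0.22) and G6pdx at -0.19 (adjusted p = 0.26). Among 26 genes of the TCA cycle and itaconate (median -0.005; 2 had an unadjusted p under 0.05 and the DESeq2 Wald test called 0), Acod1, the itaconate-forming enzyme, had 196, 241 and 602 in WT and 159, 135 and 127 in miR-210 KO (log2 fold change -1.29, SE 0.31, adjusted p = 0.062), with WT library 3 far above the others, and Idh3a and Sdhc were at -0.18 (adjusted p = 0.44) and -0.11 (adjusted p = 0.53). The 81 nuclear genes of the respiratory chain had a median of -0.003 (2 had an unadjusted p under 0.05 and the DESeq2 Wald test called 0). Cox6a2 was at -0.78 (adjusted p = 0.096), Ndufs6 at 0.41 (adjusted p = 0.13) and Uqcrh at 0.18 (adjusted p = 0.48). The 83 cytosolic ribosomal proteins had a median of 0.028 (0 had an unadjusted p under 0.05 and the DESeq2 Wald test called 0), with Rps15a, Rpl37 and Rpl7 at -0.15 (adjusted p = 0.54), 0.16 (adjusted p = 0.59) and 0.10 (adjusted p = 0.61).

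Sterol and fatty acid synthesis had a median of -0.068 over 40 genes with no call (11 had an unadjusted p under 0.05 and the DESeq2 Wald test called 1). Scd2, a fatty acid desaturase, was at -0.62 (adjusted p = 0.13). Lipid handling and oxidation had a median of 0.016 over 43 genes (8 had an unadjusted p under 0.05 and the DESeq2 Wald test called 1). Lpl, lipoprotein lipase, was at -0.36 (adjusted p = 0.051), Pnpla2 at 0.25 (adjusted p = 0.18) and Ppargc1b at -0.33 (adjusted p = 0.21). Hypoxia genes regulated by HIF, 39 of them, had a median of -0.015 and no call (5 had an unadjusted p under 0.05 and the DESeq2 Wald test called 0). Vegfa, Slc2a1 and Slc2a3 were at -0.22 (adjusted p = 0.21), -0.22 (adjusted p = 0.28) and -0.55 (adjusted p = 0.30). The 48 genes of the NRF2 response and redox control had a median of -0.056 (13 had an unadjusted p under 0.05 and the DESeq2 Wald test called 0). Srxn1 was at -0.26 (adjusted p = 0.10), Gclm at -0.31 (adjusted p = 0.19) and Prdx1 at -0.23 (adjusted p = 0.22). The unfolded protein response, with 28 genes, had a median of 0.010 (0 had an unadjusted p under 0.05 and the DESeq2 Wald test called 0). Atf6, Pdia4 and Syvn1 were at 0.09 (adjusted p = 0.58), 0.12 (adjusted p = 0.62) and -0.15 (adjusted p = 0.64).

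**Figure D4:**
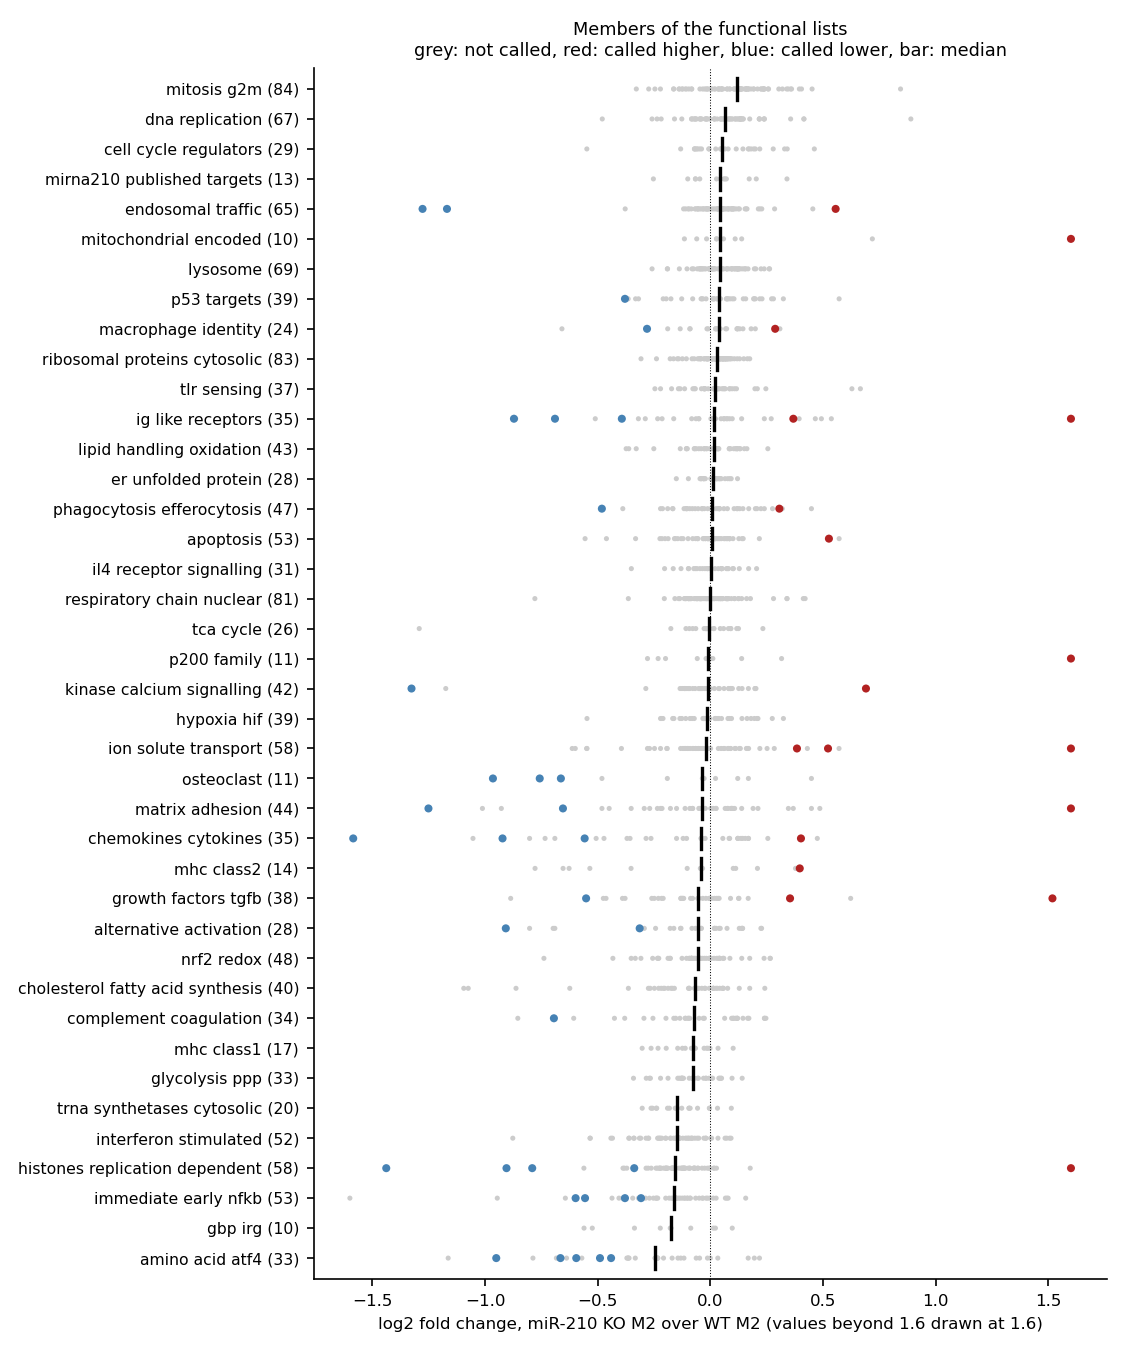
Log2 fold change of miR-210 KO M2 over WT M2 (horizontal) for each tested member of the lists with 10 or more tested genes, a list per line with its number of tested genes, called members in red or blue and a bar at the median. The ATF4 amino acid list has the lowest median, -0.245, with 5 called members, all lower, and the mitosis list the highest, 0.118, with none called.

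Transcripts with a match to the miR-210-3p seed were examined next, since loss of a microRNA can raise its targets. Among 11041 tested protein-coding genes with a 3' UTR, 71 held the 8-base site ACGCACAA on the transcript strand of the longest transcript, and 485 held only the 7-base site ACGCACA. Genes with the 8-base site had a median log2 fold change of 0.035, with 63.4% over 0, and those with only the 7-base site 0.014, with 54.4% over 0. Over all 11041 genes the median was 0.003, with 51.0% over 0. In M0, where miR-210 is deleted too, the medians did not stand above that of all genes. They were 0.007 with the 8-base site, 0.006 with only the 7-base site and 0.009 over all genes with a 3' UTR. The 3' UTRs of both classes were longer, with medians of 3286 (8-base) and 3316 bases (7-base only) against 1588.5 in genes without a match. Having a site and length thus moved together, while length was alike in the 2 classes. Of the 556 genes with either site, 4 were called higher (0.719%) and 1 lower, beside 0.453% of all genes with a 3' UTR called higher.

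The sites of the 5 called genes are shown because they are the 7- or 8-base matches in the longest transcripts of called genes, with the bases of the site in capitals (GRCm39, strand of the transcript, last exon in each). They lie at chr6:122582857-122582864 (minus strand) in Gdf3, chr11:90168245-90168251 (plus) in Mmd, chr10:7393740-7393746 (minus) in Ulbp1, chr1:165001774-165001780 (minus) in Sft2d2 and chr19:58962536-58962542 (minus) in Shtn1.
Gdf3: caggctaacctcaaACGCACAAgagatc
Mmd: aaacgattccattgACGCACAccccca
Ulbp1: cctccccagaacccACGCACActgtgg
Sft2d2: ccacccctccccccACGCACAcacaca
Shtn1: ttacaccagctctcACGCACAgtgaag
Gdf3 was the 1 called gene with the 8-base site in its longest transcript; the others were named for their site, after their values were seen. Mmd, a progestin receptor family member named for monocyte to macrophage differentiation, had 652, 681 and 563 in WT and 817, 837 and 859 in miR-210 KO (log2 fold change 0.40, SE 0.07, adjusted p = 0.013) and lost its call without WT library 3, KO library 1 or KO library 2 (adjusted p between 0.051 and 0.086). Ulbp1, a ligand of the receptor NKG2D, and Sft2d2, a vesicle transport protein, were higher by 0.31 and 0.27 on the log2 scale (adjusted p = 0.025 and 0.039). Shtn1, shootin 1, fell by 0.33 (adjusted p = 0.0091). Ulbp1 kept its call only without KO library 3 (adjusted p between 0.053 and 0.15 in the others), Sft2d2 in none of the 6 fits with 1 library left out, and Shtn1 in 3 of them. Ulbp1 and Sft2d2 were not called in the fit of all 12 libraries.

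For miR-210-5p, 674 genes held the 8-base site and 1489 only the 7-base site, with medians of 0.014 and 0.009. Of these 2163 genes, 7 were called higher (0.324%) and 10 lower, 0.786% in all. Among all genes with a 3' UTR, 0.453% were called higher and 1.08% in all. A list of 16 transcripts known as miR-210 targets held 13 tested genes, of which 8 had a log2 fold change over 0 and none was called (1 had an unadjusted p under 0.05 and the DESeq2 Wald test called 0), with a median of 0.044. Iscu, the iron-sulfur cluster scaffold, had 406, 459 and 374 normalized counts in WT and 469, 517 and 409.6 in miR-210 KO (log2 fold change 0.17, SE 0.09, adjusted p = 0.57), and the genotypes overlapped. Gpd1l, a glycerol phosphate dehydrogenase, was at 0.20 (adjusted p = 0.27), and Ndufa4, a respiratory chain subunit, at 0.34 (adjusted p = 0.57).

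The M2 values were then set beside those of M0 macrophages, cultured without IL-4, whose libraries are separate. The labels do not say whether the same mice gave the M0 and the M2 cells, so the states may not be independent. Of the 137 genes called in M2, 115 were tested in M0. These were 56 of the 57 genes called higher in M2 and 59 of the 80 called lower. The fitted change in M0 was over 0 in 46 of the 56 and under 0 in 38 of the 59. The share of all genes with the same sign in both states was not counted. Agreement beyond that share cannot be read from these counts. Called in both states in the same direction were 29 genes, 17 higher and 12 lower, beside 0.469% of the 13436 genes tested in both states that were called in M0. Of these 29, 25 were also called in M2 whichever library was left out. Among the 29, H4c17, mt-Nd3, Gm28438, Pira2, Gm16867, Dynlt1b, Tmem181b-ps, Gm42031 and Gm49980 share at least 50% of their stretches with other genes. For H4c17, mt-Nd3 and Gm28438 a call in both states cannot be read as a change in level. The part of read assignment in the M0 calls was not tested. Rab4a had log2 fold changes of -1.17 in M2 and -2.06 in M0, Wdfy1 -1.28 and -1.39, Slc15a2 2.21 and 2.14, and Gdf3 1.52 and 1.23.

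Whether the effect of the genotype differed between the states was tested with the interaction of genotype and IL-4 on all 12 libraries. Of 14825 genes, 0 had an adjusted p under 0.05 in edgeR's quasi-likelihood test, and 1327 (8.95%) had an unadjusted p under 0.05. The DESeq2 Wald test called 73 of the 12367 genes to which it gave an adjusted p (0.590%). In edgeR's test no change was thus shown to differ between M2 and M0. Prokr1, a prokineticin receptor, had the smallest p, with log2 fold changes of -0.23 in M2 and 0.59 in M0 (adjusted p = 0.075). The histone genes H1f5, H2bc15 and H3c1 followed, with -0.13, -0.11 and -0.17 in M2 and 0.96, 0.84 and 0.82 in M0 (adjusted p = 0.095 each). Psat1 had -0.60 and 0.57, Mmp14 -0.18 and 0.57, Plaur -0.10 and 0.94, Agpat4 -0.02 and 0.62, Usf1 0.16 and -0.55, and Arhgef3 0.42 and -0.14, also at 0.095. Without KO M0 library 2 the test called 77 genes and without WT M0 library 2 it called 65.

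**Figure D5:**
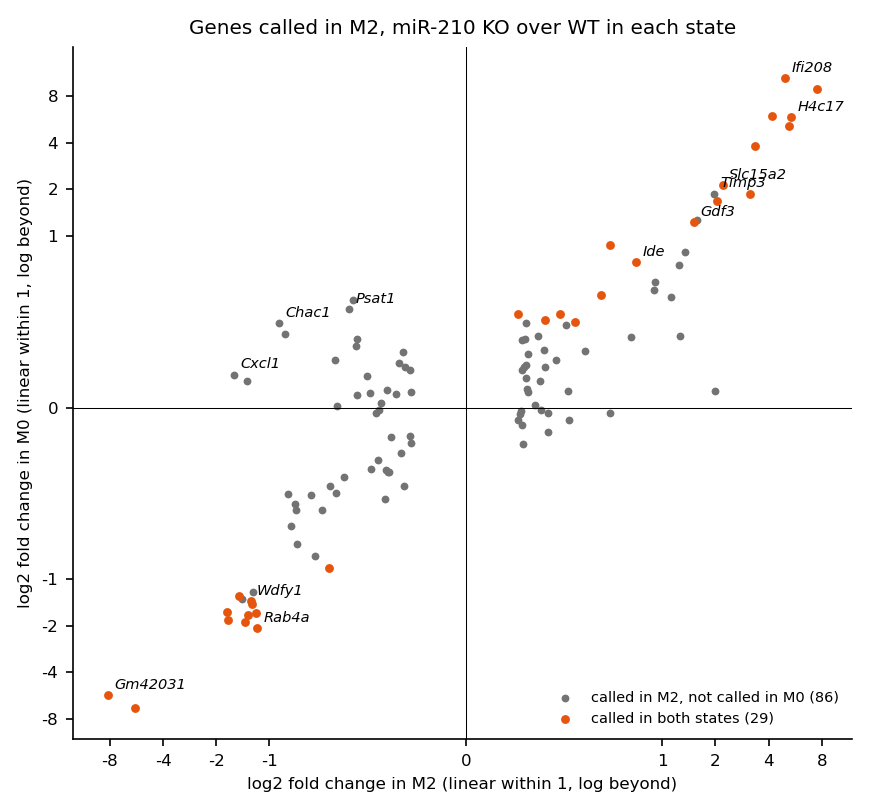
Log2 fold change of miR-210 KO over WT in M0 (vertical) against M2 (horizontal), linear within 1 and logarithmic beyond, for the 115 genes called in M2 and tested in M0, with the 29 called in both states in orange. The 29 lie in the upper right and lower left, while Cxcl1, Chac1 and Psat1 lie on the other side of 0 in M0, where none of them was called.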

How the data were processed

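RNA was rRNA-depleted and sequenced as stranded paired ends. Per the methods and the submitters' processing notes, the authors trimmed reads with Trimmomatic, aligned them to GRCm39 with STAR, removed duplicates with Picard and counted stranded reads per gene with featureCounts, and the deposited tables hold these raw counts. The M2 and the M0 tables were used. The authors' own comparison columns (fold changes, p-values) were not used. Removing duplicates lowers counts of abundant short transcripts most, and reads can be assigned to either of near-identical copies.

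Genes passing filterByExpr were scaled by TMM and compared with edgeR 4.0.16 (R 4.3.3), glmQLFit and glmQLFTest, on the 6 M2 libraries, with BH adjustment. The standard error is the absolute log2 fold change over the root of F. A call needed an adjusted p under 0.05 and an absolute log2 fold change over 0.263 (1.2-fold). DESeq2 1.42.0, other scalings, filters and left-out libraries were alternatives. The interaction used all 12 libraries. The script was tested on simulated data. With 3 against 3, an exact permutation test cannot go below p = 0.1. Names and positions are from GENCODE M39 (13914 of the 13980 genes matched), which may differ from the annotation used for counting.

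The comparison, the 46 gene lists and the tests were chosen with earlier results of these data known. Genes were named by a rule: the 15 of largest fold with a mean over 10 normalized counts and no overlap and the 10 of smallest p in each direction, every called list member, up to 3 members of a list without a call, the 5 called genes of highest level, 10 by interaction p, and Arg1, Retnla, Mrc1 and Chil3. Some genes that the rule names are not reported here. Counts of libraries within a group were compared by chi-square (1.89 to 4.81 per degree of freedom, above sampling noise). Library totals of 8096658 to 9671168 counts set the precision, and intervals and floors cover counting error only.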

Additional observations from a re-analysis of the deposited data

How the results depend on the processing

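The number of genes called in M2 depended on the choices made. It was 360 without a filter on low counts, 60 in the fit of all 12 libraries, 40 with an absolute log2 fold change over 1, and 53 to 215 with 1 library left out. DESeq2's Wald test (135), RLE (134) and upper-quartile scaling (145), a mean over 10 (131) and no fold limit (144) stayed within 1.5 times of 137. After the data were seen, near-identical copies were summed (124 calls) or left out (121). The labels do not say whether the library numbers pair the samples. Deviations of same-numbered libraries correlated at -0.098, 0.092 and 0.075, and those of differently numbered ones at -0.175 to 0.112. Such weak correlations cannot settle whether samples were paired. A replicate block on the numbers gave 289 calls. Of the genes in lists, 51 were called, 112 with the replicate block and 25 to 68 with 1 library left out. The interaction called 0 genes, 341 without a filter, 73 with DESeq2, 0 with the replicate block and 0 to 77 with 1 library left out. The median of genes with a seed match, 0.017, was 0.016 with 6-base matches and 0.017 over any transcript. The cause was not tested, except that a larger fold limit can only remove calls.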

Other observations

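Some genes in none of the lists, outside the naming rule and described after their values were seen, were called in every fit with 1 library left out. Map2, a microtubule-associated protein, had 216, 221 and 253 normalized counts in WT and 137, 123 and 108 in miR-210 KO (log2 fold change -0.90, SE 0.11, adjusted p = 3.4e-04). Pals1, a scaffold of cell polarity complexes, had 471, 451 and 509.7 in WT and 645, 628 and 724 in miR-210 KO (log2 fold change 0.48, SE 0.08, adjusted p = 0.0045). Wwc2, of the KIBRA family, had 203, 199 and 204 in WT and 333, 300.0 and 379 in miR-210 KO (log2 fold change 0.74, SE 0.10, adjusted p = 5.9e-04). Pbxip1, which binds PBX transcription factors, was at -0.87 (adjusted p = 0.0016), Rell1, a relative of the TNF receptor RELT, at 0.46 (adjusted p = 0.0039) and Nhsl2 at 0.73 (adjusted p = 0.0052). Gm42047, with 73.0% of its stretches in other genes, was at 0.84 (adjusted p = 4.4e-05). The groups did not overlap in Map2, Pals1 and Wwc2, and Nhsl2 was not called in the fit of all 12 libraries.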
